A study of Mus musculus with 31 samples.

Results

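The periocular mesenchyme is the loose tissue, mostly of neural crest origin, that surrounds the developing optic cup and lens. It gives rise to the corneal stroma and endothelium, the sclera, the stroma of the iris and the drainage tissue at the front of the eye. Forkhead factors (Foxc1, Foxc2), the basic helix-loop-helix factor Twist1, the paired-type homeobox factor Prrx1, the AP-2 factor Tfap2b and the LIM homeobox factor Lmx1b mark its cells, and fibrillar collagens (Col1a1, Col1a2, Col3a1) are the bulk of the matrix that they lay down. These 9 genes were chosen by name, with earlier results of these data known. Every non-control probe that carries one of the names was taken, which gave 9 of 34832 gene names and 11 of 55681 different probes on the array. Prrx1 and Lmx1b have 2 probes each, and each of the other genes has 1.

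Whole eyes of E13.5 embryos (embryonic day 13.5) were profiled, 1 eye a sample, on 1-colour Agilent whole-genome arrays. The 4 groups were WT females (3 eyes, numbered 1, 2 and 4), WT males (3 eyes), males hemizygous for the Ftx deletion (Ftx-/Y, 3 eyes) and females homozygous for it (Ftx-/-, 11 eyes, each measured on 2 arrays). Ftx is an X-linked long noncoding RNA gene of the X-inactivation centre, and per the study its targeting also ended the expression of the microRNAs that lie in 1 of its introns. All mice were on the C57BL/6N background, the eyes looked normal, and the layer of pigmented epithelium was cut away before the RNA was taken. Nothing in the labels says which eyes came from the same embryo or litter, so p-values measure the spread between these eyes. An eye is a mixture of tissues, and in such bulk RNA fewer cells of a type and less RNA per cell cannot be told apart.

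Values are given as signal, the background-subtracted intensity after quantile-spline normalization, in arbitrary units, and a level is set only against the same probe in other eyes. The median intensity of an array before normalization was between 34.2 and 75, and 48.2% to 70.4% of probe spots were well above background. The 2 arrays of an eye correlated at 0.994 or higher over the 14052 probes with a mean WT female signal above 500. Dimmer probes were not part of this correlation. The probe for Ftx, listed under its older name B230206F22Rik, averaged a signal of 101 ± 44.9 in WT females, 106 ± 4.53 in WT males, 16.5 ± 2.93 in Ftx-/Y males and 21.8 ± 11 in Ftx-/- females (SD; n = 3, 3, 3 and 11). All WT eyes lay on slide 1 of 4 together with 1 Ftx-/Y eye, and no slide held both WT and Ftx-/- females, so slide and genotype cannot be told apart in females.

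The member probes covered a wide range of signal. The probes for Foxc1, Tfap2b and the 3 collagens were well above background on 31 of 31 arrays, and 1 of the Prrx1 probes (A_55_P2131920) on 30. The Twist1 probe and the other Prrx1 probe (A_55_P2131915) were not well above background on any WT female array, but were on 14 and 11 of the 22 Ftx-/- arrays. A limit of 500 on the mean WT female signal, taken from the study, was passed by 14052 probes, among them Tfap2b and Col1a2, which were tested among these probes, and the other 9 were tested among all 55681 probes. Tfap2b is also made by amacrine and horizontal cells of the retina, so its signal in a whole eye has more than 1 source.

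Sequence around the transcription start is shown for 3 genes called higher in Ftx-/- females and for Lmx1b, which was not called. Each window runs from 250 bases before to 50 bases after the RefSeq start (GRCm38.p6), and RefSeq windows were at hand for 7 of the 9 genes. The capitals mark matches to the letters of the CCAAT box (CCAAT, or ATTGG on the other strand) and of the TATA box (TATAAA on either strand). Matches count anywhere in the window. The TATAAA of Col3a1 lies 117 to 112 bases before the start, and a match in Foxc1 and another in Col1a2 lie at or after the start. The Foxc1 window is chr13:31806396-31806695 on the plus strand, the Lmx1b window chr2:33641049-33641348 on the minus strand, the Col1a2 window chr6:4505368-4505667 on the plus strand and the Col3a1 window chr1:45311288-45311587 on the plus strand.
Foxc1: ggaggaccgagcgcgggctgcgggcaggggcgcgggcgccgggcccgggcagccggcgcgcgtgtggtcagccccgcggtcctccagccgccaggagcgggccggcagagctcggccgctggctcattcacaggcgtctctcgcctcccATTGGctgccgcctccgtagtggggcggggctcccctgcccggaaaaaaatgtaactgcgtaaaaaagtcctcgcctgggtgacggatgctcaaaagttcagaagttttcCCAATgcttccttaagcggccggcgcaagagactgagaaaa
Lmx1b: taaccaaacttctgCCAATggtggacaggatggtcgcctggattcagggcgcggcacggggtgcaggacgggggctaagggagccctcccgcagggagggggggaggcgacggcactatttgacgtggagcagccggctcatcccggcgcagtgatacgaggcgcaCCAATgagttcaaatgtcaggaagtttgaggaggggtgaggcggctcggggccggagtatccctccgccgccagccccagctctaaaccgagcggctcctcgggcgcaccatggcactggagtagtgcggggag
Col1a2: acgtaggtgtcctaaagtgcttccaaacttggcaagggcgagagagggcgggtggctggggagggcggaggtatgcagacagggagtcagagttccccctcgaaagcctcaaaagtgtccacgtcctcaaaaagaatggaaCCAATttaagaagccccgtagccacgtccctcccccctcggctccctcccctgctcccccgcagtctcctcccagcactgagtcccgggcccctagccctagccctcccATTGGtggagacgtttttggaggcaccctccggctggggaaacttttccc
Col3a1: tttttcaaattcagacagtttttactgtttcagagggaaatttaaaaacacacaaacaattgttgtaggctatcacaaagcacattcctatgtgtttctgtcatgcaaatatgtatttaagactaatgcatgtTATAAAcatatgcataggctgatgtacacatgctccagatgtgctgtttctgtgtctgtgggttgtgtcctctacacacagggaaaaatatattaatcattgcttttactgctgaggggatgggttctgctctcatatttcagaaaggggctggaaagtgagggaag
The windows differed in base composition, with 67.3% G and C in Foxc1, 65.7% in Lmx1b, 61.0% in Col1a2 and 37.7% in Col3a1. The letters CCAAT were present on either strand in 4 of the 7 windows (Foxc1, Twist1, Lmx1b, Col1a2), against 37.4% of 32851 promoter windows of the same length. TATAAA was present in 2 (Twist1, Col3a1), against 13.6%. The letters GGGCGG were found on either strand in 3 (Foxc1, Twist1, Col1a2), against 35.7%, and the E-box letters CANNTG in 3 (Tfap2b, Lmx1b, Col3a1), against 72.3%. None of the matches overlapped a match to another motif. Lmx1b, which was not called, and Foxc1 and Col1a2, which were, thus all hold the letters CCAAT or ATTGG in this window.

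The main comparison asked how the eyes of Ftx-/- females differed from those of WT females. Of the 11 member probes, 7 (of 6 genes) were called higher and 0 lower, at an adjusted p under 0.05. Over all probes 7.77% were called higher and 8.05% lower, and of those above the signal limit 16.8% and 18.2%. The genes called higher were Foxc1, Foxc2 and Prrx1 among the transcription factors and Col1a1, Col1a2 and Col3a1 among the collagens. Twist1, Tfap2b and Lmx1b did not pass, though Tfap2b did in 5 of 36 alternatives, among them the methods' t-test after Benjamini-Hochberg adjustment (adjusted p = 0.0423). The median log2 fold change of the 11 probes was 1.96, against 0.02 for all 55681 probes. The 2 groups did not overlap for 6 probes (Foxc1, both of Prrx1, Col1a1, Col1a2 and Col3a1), with every Ftx-/- eye above every WT female eye, where 5.35% of all probes and 10.1% of those above the signal limit were higher with no overlap. Over 36 alternative settings and left-out eyes the call was lost 26 times for Prrx1 A_55_P2131920, 21 for Col1a1, 20 for Col1a2, 10 for Foxc2 and for Prrx1 A_55_P2131915, 6 for Col3a1 and 4 for Foxc1. The calls depended on the 3 WT female eyes. They fell from 7 to 0 without WT female 1, to 1 without WT female 2 and to 4 without WT female 4, and no probe was called when the 3 WT males, an alternative chosen after seeing the data, stood in for the WT females. With 1 WT female eye left out, and 2 remaining, the median change of the 11 probes was 1.53 to 2.11, against 1.96 with all 3.

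**Figure D1:**
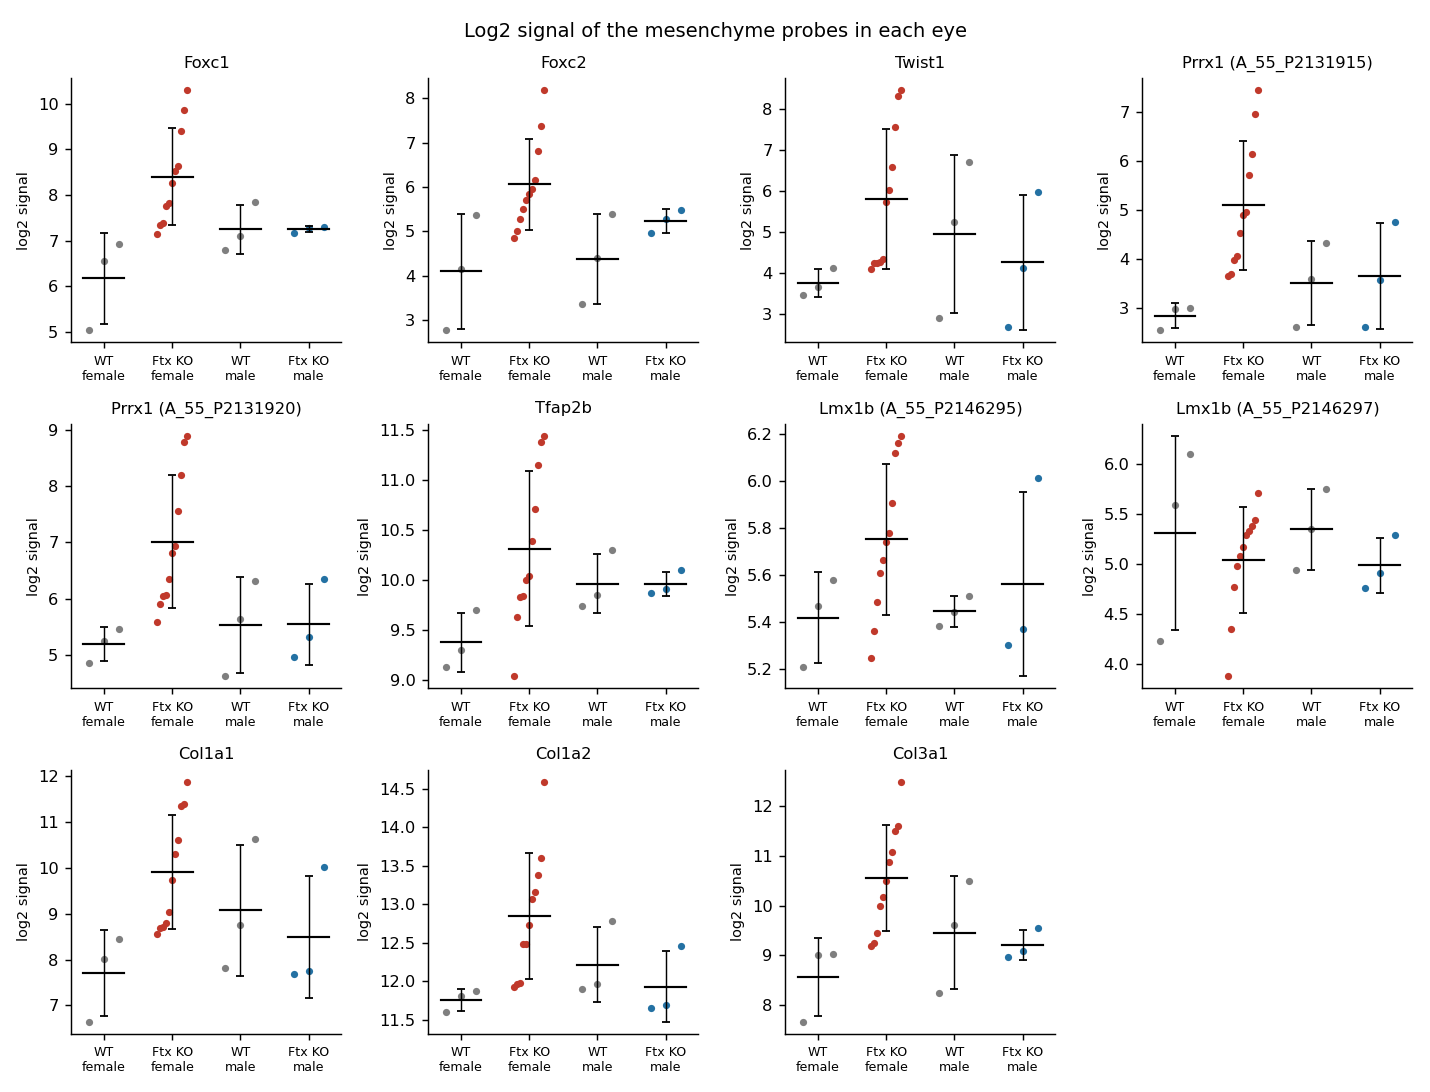
Log2 signal (y axis) of each of the 11 member probes in the 20 eyes, 1 point an eye, by group (x axis), with the mean (wide bar) and the SD (whiskers); each panel has its own y axis. For every gene but Lmx1b the highest Ftx-/- eyes lie far above the other 3 groups.

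Foxc1, which with Foxc2 is needed for the mesenchyme to form the front of the eye, gave the smallest adjusted p of the members. The signal of its probe (mm9 chr13:31902423-31902482) was 32.7, 94.4 and 121 in WT females 1, 2 and 4, and 141 at the lowest, 309 at the median and 1257 at the highest in the Ftx-/- females. Every Ftx-/- eye was above every WT female eye, and WT female 1 lay well below the other 2. The log2 fold change was 2.23 ± 0.56 (SE; limma, adjusted p = 0.0106). In WT males Foxc1 gave 230, 138 and 112, and in Ftx-/Y males 155, 157 and 144, so the males overlapped the lower Ftx-/- eyes. Against the WT males the change in Ftx-/- females was 1.15 (limma, adjusted p = 0.263), and without WT female 1 it was 1.66 (adjusted p = 0.134).

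Foxc2 is its close relative, and its probe (mm9 chr8:123642693-123642752) was well above background on 23 of 31 arrays. The signal was 6.84, 17.7 and 41.5 in the WT females, 42.0, 21.1 and 10.3 in the WT males and 44.9, 38.7 and 31.0 in the Ftx-/Y males. In the Ftx-/- females it ran from 28.9 through a median of 57.5 to 290. The groups overlapped, with 8 of 11 Ftx-/- eyes above the highest WT female. On the log2 scale Foxc2 rose by 1.96 ± 0.61 (SE; limma, adjusted p = 0.0337). Without WT female 1 the change was 1.30 (adjusted p = 0.309), and without WT female 2 it was 1.99 (adjusted p = 0.108).

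Twist1 helps neural crest cells to form the mesenchyme of the head. Its probe (mm9 chr12:34644411-34644470) was not well above background in WT females, where the signal was 12.6, 11.1 and 17.5. The Ftx-/- eyes ran from 17.0 through a median of 52.7 to 350, and 5 of them were at 20.2 or less while 3 were at 188 or more. By the measured signals their mean was 4.13-fold that of WT females, but the difference did not pass (limma, adjusted p = 0.166). This fold is approximate, as the probe was well above background on no WT female array and on 14 of 22 Ftx-/- arrays. The male groups were as uneven, with 37.6, 105 and 7.50 in WT and 6.39, 17.5 and 62.8 in Ftx-/Y males.

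Prrx1 marks the loose mesenchyme of the head and limbs, and its 2 probes are annotated to different transcripts (mm9, chr1:165175375-165175434 for A_55_P2131920 and chr1:165185408-165185467 for A_55_P2131915). The probe A_55_P2131920 gave 29.1, 37.9 and 44.1 in WT females and 47.8 to 472 in Ftx-/- females, with a median of 112. The probe A_55_P2131915 gave 7.90, 8.04 and 5.88 in WT females and 12.7 to 175 in Ftx-/- females, with a median of 30.1. Both probes put all 11 Ftx-/- eyes above the 3 WT females. The log2 fold change was 1.82 ± 0.61 for A_55_P2131920 (SE; limma, adjusted p = 0.0498). For A_55_P2131915, the mean was 4.53-fold higher in Ftx-/- females with each WT female signal raised to at least the lowest signal well above background (limma on the measured signals, adjusted p = 0.0324). This fold is approximate, as the probe was well above background on no WT female array and on 11 of 22 Ftx-/- arrays. In males A_55_P2131920 gave 79.8, 49.9 and 24.7 in WT and 39.8, 31.3 and 81.4 in Ftx-/Y eyes.

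Tfap2b (probe at mm9 chr1:19228555-19228614) varied less between eyes. The signal was 559, 834 and 630 in WT females, 1262, 858 and 922 in WT males and 939, 962 and 1097 in Ftx-/Y males. The Ftx-/- eyes ran from 527 through 1053 to 2774, and overlapped all other groups at their lower end. Their log2 fold change against WT females was 0.94 ± 0.38 (SE; limma, adjusted p = 0.0614).

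Lmx1b, which is needed for the cornea, the iris and the drainage tissue to form, was not called with either probe. The first probe below was well above background on 28 of 31 arrays and the second on 19, so both were dim. Both of its probes lie on the minus strand of chromosome 2 (mm9), with starts 74758 bases apart, at chr2:33495011-33495070 and chr2:33420253-33420312. They are shown because, in Ftx-/- against WT females, the second was the only member probe with a change below 0.
Lmx1b A_55_P2146295: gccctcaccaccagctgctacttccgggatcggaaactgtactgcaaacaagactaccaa
Lmx1b A_55_P2146297: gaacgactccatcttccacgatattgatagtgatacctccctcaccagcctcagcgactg
The first probe gave 44.3, 47.8 and 36.9 in WT females and 38 to 73.0 in Ftx-/- females, with a median of 53.5. The second gave 18.8, 48.2 and 68.5 in WT females and 14.8 to 52.4 in Ftx-/- females, with a median of 35.9. Both pairs of groups overlapped. The log2 fold change was 0.33 with a 95% interval of -0.12 to 0.78 for the first probe and -0.27 with an interval of -1.03 to 0.48 for the second (limma, adjusted p = 0.321 and 0.65). In males the first probe gave 43.4, 41.7 and 45.6 in WT and 64.5, 41.4 and 39.4 in Ftx-/Y eyes.

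Col1a2 and Col1a1 encode the chains of type I collagen, the main collagen of the sclera and the corneal stroma. Col1a2 (probe at mm9 chr6:4490619-4490678) gave 3100, 3575 and 3755 in WT females. The Ftx-/- eyes ran from 3896 through a median of 6775 to 24630, all above the WT females. On the log2 scale Col1a2 rose by 1.09 ± 0.42 (SE; limma, adjusted p = 0.0475). In males Col1a2 gave 7051, 3828 and 4007 in WT and 3301, 3212 and 5638 in Ftx-/Y eyes, so WT male 1 was above the median Ftx-/- eye.

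Col1a1 (probe at mm9 chr11:94813115-94813174) had more spread between the controls. The WT females gave 100, 260 and 348, and the Ftx-/- females ran from 380 through 847 to 3751. No Ftx-/- eye overlapped the WT females. On the log2 scale Col1a1 rose by 2.21 ± 0.74 (SE; limma, adjusted p = 0.0483). WT males gave 1587, 433 and 226 and Ftx-/Y males 215, 206 and 1044, a spread that covered much of the Ftx-/- range.

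Col3a1, the type III collagen of loose connective tissue (probe at mm9 chr1:45405589-45405648), gave 204, 513 and 525 in WT females. The Ftx-/- females ran from 583 through 1440 to 5698 and did not overlap them. The log2 fold change was 1.98 ± 0.58 (SE; limma, adjusted p = 0.0253). WT males gave 1439, 786 and 304 and Ftx-/Y males 548, 503 and 747. Against the WT males the change in Ftx-/- females was 1.098 (limma, adjusted p = 0.313).

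The second comparison asked whether the deletion moved the same genes in males. Of the 11 probes 0 were called in Ftx-/Y against WT males by limma, and 0 had an unadjusted p under 0.05, where 0.0988% of all probes and 0.0213% of those above the signal limit were called in either direction and 12.9% and 11.8% had such a p. The log2 fold changes ran from -0.69 ± 1.22 (SE) for Twist1 to 0.86 ± 0.76 for Foxc2, with a median of -0.01 against 0.03 for all probes. Foxc1 changed by -0.01 with a 95% interval of -1.47 to 1.45, and Col1a1 by -0.58 with an interval of -2.53 to 1.36. The interval of the female change was 1.07 to 3.40 for Foxc1 and 0.66 to 3.77 for Col1a1. For both genes the intervals of the sexes overlapped, which is not a test of their difference. The interval of the difference itself, not adjusted for the number of probes, was 0.37 to 4.11 for Foxc1 and 0.31 to 5.28 for Col1a1. WT male 1 was the highest male eye for Foxc1, Tfap2b and the 3 collagens, and Ftx-/Y male 3 was second for Tfap2b and for Col1a1 and Col1a2. Without WT male 1, the changes of Foxc1, Tfap2b, Col1a1 and Col3a1 turned from below to above 0, at 0.29, 0.17, 0.20 and 0.27, none of them called.

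The difference between the sexes was tested by itself. The female change was above the male change for 11 of 11 probes, with a median difference of 1.80 on the log2 scale. None of the differences was called by limma, where 0.00898% of all probes and 0% of those above the signal limit were, and 3 had an unadjusted p under 0.05, as did 10% and 13.8%. These were Foxc1 (2.24 ± 0.89, SE; limma, adjusted p = 0.414), Col1a1 (2.80 ± 1.19; adjusted p = 0.444) and Col3a1 (2.23 ± 0.93; adjusted p = 0.435). A sex difference in the effect of the deletion on these genes was therefore not detectable with these eyes.

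**Figure D2:**
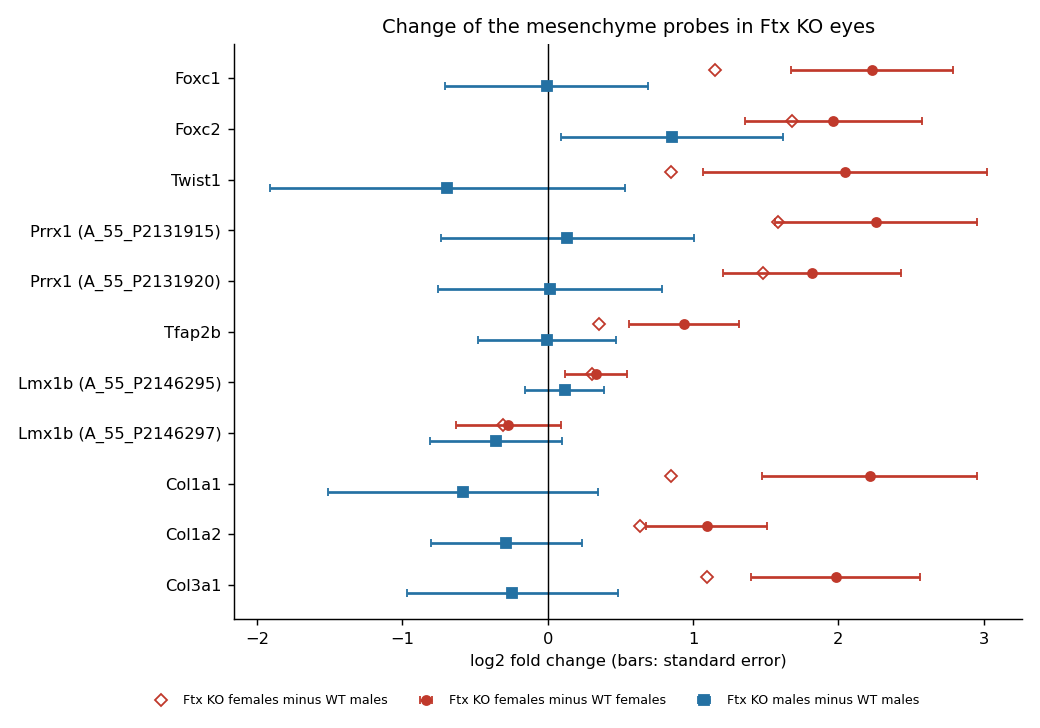
Log2 fold change (x axis) of each member probe (y axis) in Ftx-/- females against WT females (red circles) and in Ftx-/Y against WT males (blue squares), with the standard error as bars, and against WT males for the same Ftx-/- females (open diamonds, no error drawn). The female changes lie above the male ones for all 11 probes, and the open diamonds lie to the left of the red circles for all 11, least so for Lmx1b.

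The 2 WT groups were also compared with each other. WT females were below WT males for 11 of 11 probes, by a median of -0.59 on the log2 scale, against 0.00 for all probes. None of these differences was called by limma (0 with an unadjusted p under 0.05), where 0.424% of all probes and 0.0712% of those above the signal limit were called and 13.3% and 10.2% had such a p. The WT groups did not overlap for Tfap2b and Col1a2, both lower in females, where 9.36% of all probes and 9.08% of those above the signal limit were lower with no overlap. When the WT males replaced the WT females as the control, the median change of the 11 probes in Ftx-/- females dropped from 1.96 to 0.85. When all 6 WT eyes were taken as 1 control group, another alternative chosen after seeing the data, 6 of the 11 probes were called. Against Ftx-/Y males the Ftx-/- females were higher for 11 of 11 probes, by a median of 1.16, and none was called by limma (3 with an unadjusted p under 0.05), where 0.875% of all probes and 1.96% of those above the signal limit were called and 14% and 16.7% had such a p.

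Some eyes shared a slide. On slide 2, which held Ftx-/- eyes 1 to 3 and Ftx-/Y males 2 and 3, the Ftx-/- eyes were higher by 1.98 for Col3a1, 1.94 for Prrx1 (A_55_P2131920), 1.67 for Foxc1, 1.65 for Col1a1, 1.43 for Col1a2 and 0.66 for Tfap2b on the log2 scale, and by 0.21 and 0.02 for the Lmx1b probes. They were higher by 1.45 for Prrx1 A_55_P2131915, 1.39 for Foxc2 and 1.33 for Twist1. The 2 groups overlapped on this slide for Twist1, Tfap2b, Col1a1 and both probes of Prrx1 and of Lmx1b. On slide 1, Ftx-/Y male 1 minus the mean of the WT males was 1.105 for Foxc2, 0.57 for Lmx1b A_55_P2146295, 0.02 for Foxc1, -0.53 for Col1a2 and -1.32 for Col1a1, and below 0 for the other 6 probes. With slide as a fixed block the female comparison rested on the links through the males, and 0 of 11 probes were called by limma, with a median change of 1.36. With slide as a random block 1 was called, Foxc1 (2.27, adjusted p = 0.0314). The Ftx-/- eyes had a mean log2 signal of Col1a2 of 13.48 ± 1.05 on slide 2, 12.86 ± 0.70 on slide 3 and 12.37 ± 0.53 on slide 4 (SD), and of Tfap2b of 10.66, 10.69 and 9.68.

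The members varied widely between the Ftx-/- eyes. Leaving out Lmx1b, the SD between the 11 eyes was 0.77 to 1.71 on the log2 scale for 9 probes, larger than the SD of 94.1% to 99.9% of all probes. The SD between the 2 arrays of an eye, which holds only technical error, was smaller by 2.80 to 15.4 times. Lmx1b stood apart here too, with an SD of 0.32 and 0.53, 1.29 and 1.496 times that between the arrays. In the other groups, of 3 eyes each, the SD of the same 9 probes was 0.14 to 1.30 in WT females, 0.30 to 1.92 in WT males and 0.067 to 1.65 in Ftx-/Y males. The SD of Twist1 was 0.34 in WT females, 1.92 in WT males and 1.65 in Ftx-/Y males against 1.71 in Ftx-/- females, and that of Col1a1 was 0.94, 1.43, 1.33 and 1.25 in the same order. For Foxc1 it was 1.00, 0.54, 0.067 and 1.06, and for Col1a2 0.14, 0.49, 0.46 and 0.82.

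**Figure D3:**
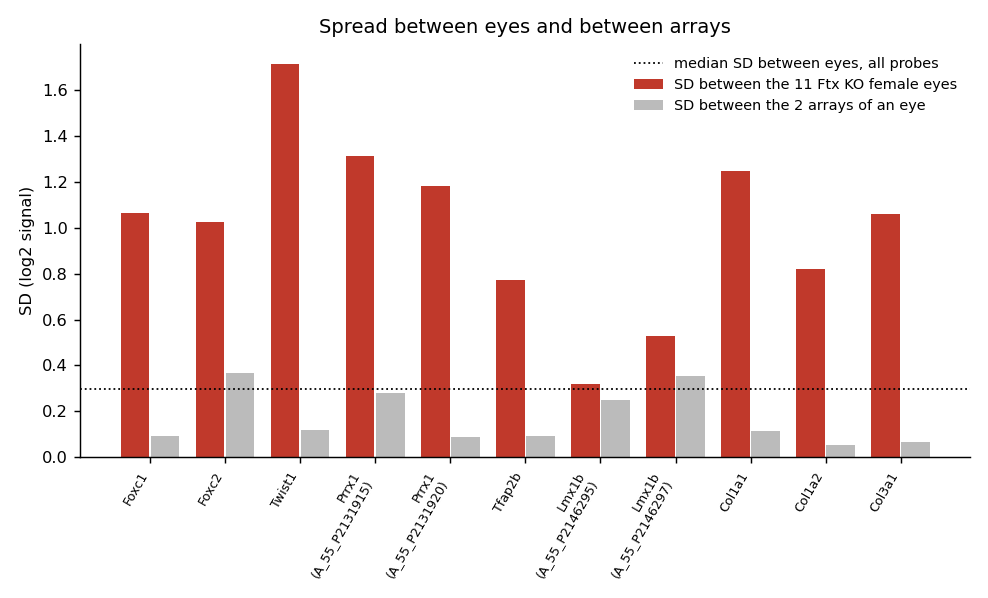
SD of the log2 signal (y axis, from 0) between the 11 Ftx-/- eyes (red bars) and between the 2 arrays of an eye (grey bars) for each member probe (x axis), with the median SD between eyes over all probes as a dotted line at 0.297. The red bars stand far above the grey ones except for the 2 Lmx1b probes.

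The same eyes were high for different genes. Eye 1 ranked first for 8 of the 9 probes and eye 5 for the other, Twist1. Eyes 1, 4 and 5 were among the top 4 for 9 of 9 probes and eye 2 for 8, while eyes 7 and 9 were among the lowest 4 for 9 of 9 and eye 10 for 8. The summed signal of the 9 genes (1 probe a gene) was 4089 to 5519 in WT females, 5659 to 11771 in WT males, 5169 to 8885 in Ftx-/Y males and 5709 to 39240 in Ftx-/- females, with a median of 11421. The lowest Ftx-/- eyes thus lay at the level of the males.

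**Figure D4:**
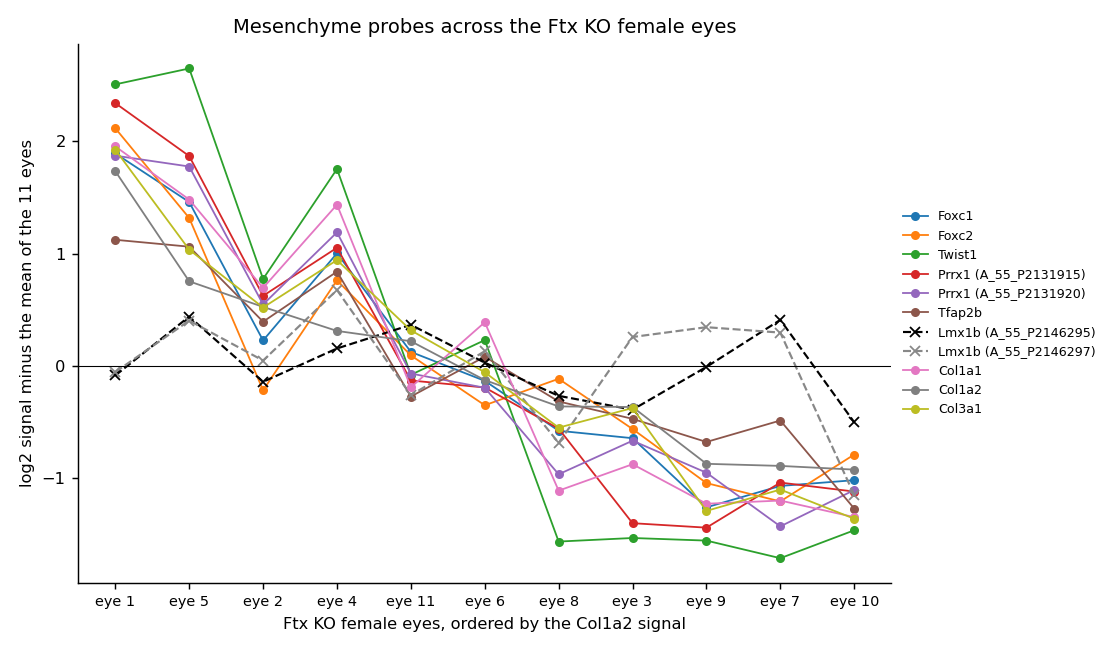
Log2 signal of each member probe minus its mean over the 11 Ftx-/- eyes (y axis), with the eyes ordered by Col1a2 (x axis). The lines of 9 probes fall together from eyes 1 and 5 to eyes 7 and 10, and the 2 dashed lines of Lmx1b do not.

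Col1a2, chosen after its values were seen, was set against the other members and the gene lists over the 11 Ftx-/- eyes, 24 relations in all. The 8 other probes apart from Lmx1b followed it with Pearson's r of 0.892 to 0.977 and Spearman's rho of 0.855 to 0.973 (permutation tests with 100000 resamples, largest adjusted p 0.00034 and 0.00334). Without eyes 1 and 5, the farthest from the median of Col1a2, r was 0.824 to 0.969, and with the slide means taken out it was 0.937 to 0.982. The Lmx1b probes gave r = 0.222 and 0.237 and rho = 0.327 and 0.182 (permutation, adjusted p 0.518 and 0.498 for r, 0.36 and 0.614 for rho).

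Other genes of mesenchyme, taken from 4 lists, were tested in the same way with 1 probe a gene. Of 27 further transcription factors of neural crest and mesenchyme, 8 rose with the deletion in females (among them Hic1, Meox1, Alx4, Snai2, Msx2, Nr2f2 and Nr2f1) and 1 fell (Tcf21), with a median log2 fold change of 0.59. Of 32 other collagens and matrix genes, 5 rose (Lum, Fbln5, Dcn, Col5a2, Fbn1) and 2 fell (Ogn, Mfap2), with a median of 0.30. Of 20 genes of collagen synthesis and crosslinking, most of them enzymes, 1 rose (P4hb) and 3 fell (P4ha3, Plod3, Bmp1), with a median of -0.06. Of 19 growth factors and receptors, 2 rose (Cxcl12, Bmpr1a) and 1 fell (Tgfb3), with a median of 0.14. Over all probes 7.77% were called higher and 8.05% lower, and of those above the signal limit 16.8% and 18.2%. In Ftx-/Y against WT males 0 of these 98 genes were called by limma, and 8 had an unadjusted p under 0.05, as did 12.9% of all probes and 11.8% of those above the signal limit.

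Lum, which encodes lumican, a proteoglycan of the corneal stroma, had a signal of 87.4, 238 and 264 in WT females, 1665, 456 and 307 in WT males and 403 to 8457 in Ftx-/- females. Every Ftx-/- eye was above the WT females, and WT male 1 was above the other WT males. The log2 fold change was 3.24 ± 0.86 (SE; limma, adjusted p = 0.0151), and in males it was -0.07 (limma, adjusted p = 0.995). Other large rises were Fbln5 (3.06; adjusted p = 0.0314), Dcn (2.50; adjusted p = 0.0489) and Cxcl12 (1.83; adjusted p = 0.0249), each with 10 of 11 Ftx-/- eyes above the highest WT female. The WT males gave 126, 362 and 23.8 for Fbln5 and 1728, 351 and 347 for Dcn, and against their mean the Ftx-/- mean was higher by 0.003 for Fbln5, 0.92 for Dcn, 1.29 for Cxcl12 and 1.44 for Lum on the log2 scale. Only 1 of the 3 WT female arrays had Fbln5 well above background, and its change in Ftx-/Y males was -1.46 (limma, adjusted p = 0.642).

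The genes that fell included enzymes of collagen synthesis. Plod3, a lysyl hydroxylase, had a mean signal of 1739 ± 184 (SD, n = 3) in WT females and 1391 ± 106 (SD, n = 11) in Ftx-/- females, a log2 fold change of -0.32 ± 0.08 (SE; limma, adjusted p = 0.0043). WT males gave 1468, 1508 and 1263 and Ftx-/Y males 1276, 1470 and 1397, and against the WT male mean the Ftx-/- mean of Plod3 differed by -0.02 on the log2 scale and that of Bmp1 by -0.03. Bmp1, which trims procollagen, changed by -0.28 ± 0.08 (adjusted p = 0.0104), and by -0.33 in males (adjusted p = 0.251). The proteoglycan Ogn changed by -0.43 and the prolyl hydroxylase subunit P4ha3 by -0.94 (adjusted p = 0.00855 and 0.00875), and by -0.43 and -0.42 against the WT males. All 11 Ftx-/- eyes were below the WT female mean for each of these 4 genes. Tcf21 was called lower too (limma, adjusted p = 0.0237), but it was well above background on 5 of 31 arrays, so no fold is given.

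Markers of other tissues were read alongside, as mean log2 signals of each list. In the Ftx-/- eyes the macrophage list followed Col1a2 with r = 0.883 and rho = 0.855 (permutation, adjusted p 0.00034 and 0.00334; r = 0.777 without eyes 1 and 5), the endothelium list with r = 0.834 and rho = 0.755 (permutation, adjusted p 0.00353 and 0.0152; r = 0.602) and the pigment list with r = 0.733 and rho = 0.782 (permutation, adjusted p 0.0155 and 0.012; r = 0.569). The lens list ran the other way, with r = -0.666 and rho = -0.755 (permutation, adjusted p 0.0373 and 0.0152; r = -0.519 without the same eyes, -0.865 with slide means taken out). The matrix list had r = 0.952 and the list of other transcription factors r = 0.922, with rho = 0.945 and 0.845 (permutation, adjusted p 0.000103 and 0.00024 for r, 0.000343 and 0.00406 for rho). The list of growth factors and receptors had r = 0.956 and that of collagen synthesis r = 0.862, with rho = 0.927 and 0.773 (permutation, adjusted p 0.000103 and 0.00111 for r, 0.000343 and 0.013 for rho), and without eyes 1 and 5 r was 0.874 and 0.74. The lists for muscle, surface ectoderm, cartilage, blood, retinal progenitors and ganglion cells gave an r between -0.456 and 0.625, none with an adjusted p under 0.05 (permutation, smallest 0.0543).

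**Figure D5:**
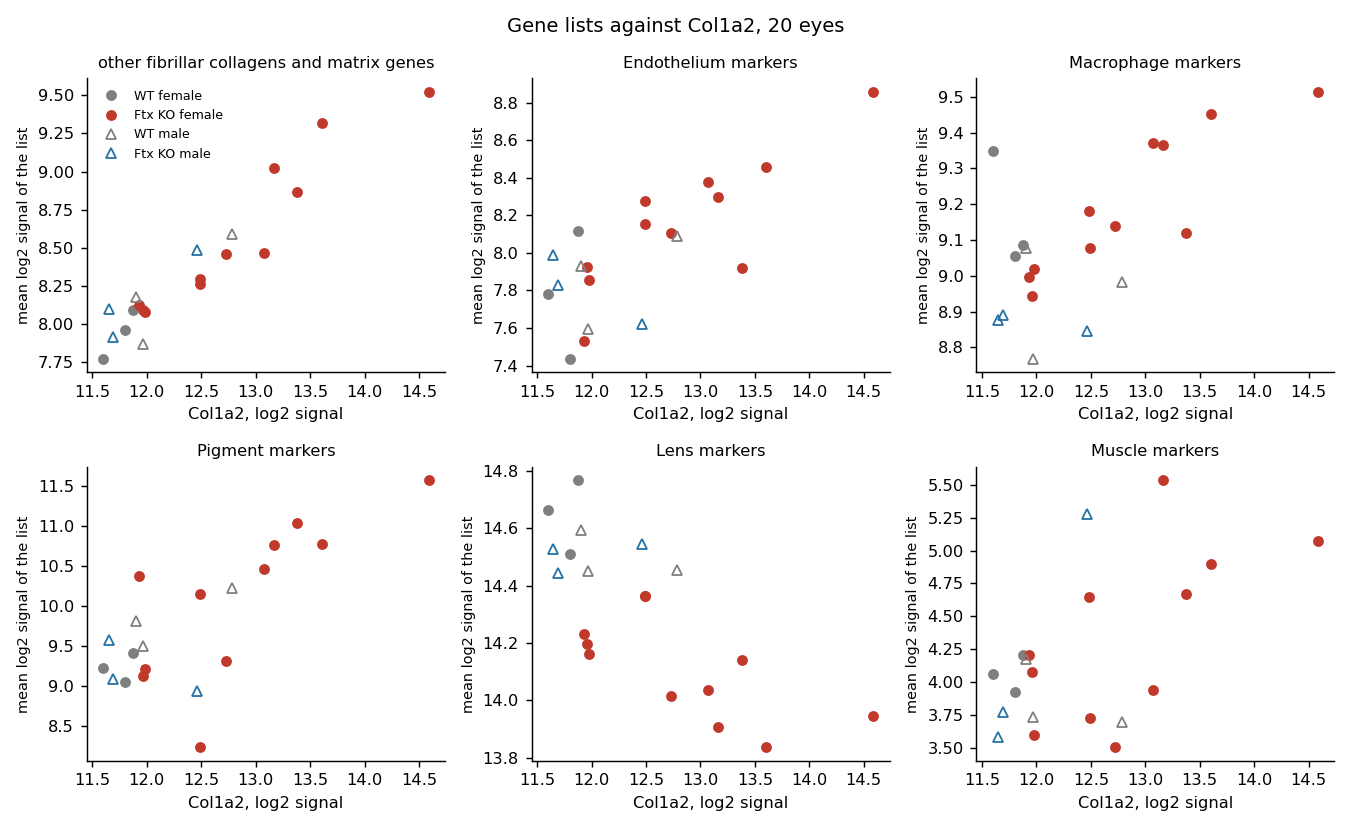
Mean log2 signal of 6 gene lists (y axes) against the log2 signal of Col1a2 (x axes), 1 point for each of the 20 eyes. The matrix list rises with Col1a2 among the Ftx-/- eyes (red), the endothelium, macrophage and pigment lists do so with more scatter, and the lens list falls.

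The same marker lists were compared between the groups, where 7.77% of all probes were called higher and 8.05% lower, and of those above the signal limit 16.8% and 18.2%. Of 9 lens markers 0 rose and 7 fell in Ftx-/- females against WT females (from -1.11 for Bfsp1 to 0.08 for Cryaa), and their summed signal was 1122100 to 1195300 in WT females, 1149000 to 1158000 in WT males, 1102900 to 1190500 in Ftx-/Y males and 895580 to 1149800 in Ftx-/- females. Of 6 pigment markers 1 was called higher (Mitf, 0.73; limma, adjusted p = 0.0184), and all 6 had changes above 0, from 0.38 for Tyr to 1.30 for Tyrp1 with a median of 0.86. In Ftx-/Y against WT males all 6 had changes below 0, with a median of -0.73 and none called by limma (0 with an unadjusted p under 0.05), and the median difference between the sexes was 1.78, against 1.80 for the members. The summed signals of the pigment markers were 5159 to 7522, 8367 to 12822, 5047 to 7570 and 3311 to 33835 in the same order of groups. Of 7 endothelium markers 0 were called by limma (3 with an unadjusted p under 0.05), with changes from 0.08 for Pecam1 to 0.76 for Emcn and summed signals of 5703 to 5933, 6123 to 7242, 6143 to 6502 and 5306 to 8010. Of 7 macrophage markers 1 was higher (Cx3cr1, 0.52; adjusted p = 0.00154), with 5 of the 7 below 0, down to -0.33 for C1qb, a median of -0.05 and summed signals of 6670 to 7469, 5773 to 6711, 4795 to 5799 and 6315 to 8591. Among the other lists, 1 of 7 ganglion cell markers rose (Isl1, 0.33) and 3 fell (Dcx, Atoh7, Elavl3; -0.41 to -0.31). Of 9 retinal progenitor markers 2 rose, with changes from -0.40 for Six3 to 0.37 for Sox2 and a median of -0.06. Of 7 blood markers 2 rose (Hbb-bh1, Hbb-y; 1.28 and 0.53), with a lowest change of -0.10 for Hba-a1. Of 6 cartilage markers 1 rose (Hapln1, 0.95), with a lowest change of -0.54 for Acan. Of 7 surface ectoderm markers 1 fell (Cdh1, -0.74), while the median was 0.50 and the highest change 1.75 for Krt5 (limma, adjusted p = 0.274). Of 8 muscle markers 0 were called by limma (0 with an unadjusted p under 0.05), with changes from -0.74 for Tnnc1 to 2.36 for Actc1 and a median of 0.13. All lens and pigment markers were well above background on 31 arrays, and of the muscle list Myod1 and Myf5 were so on 0. The part of these tissues, and of slide, in the spread of the mesenchyme genes was not tested.

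The genes most like the members were sought among 11420 genes above the signal limit, by Pearson's correlation over the 20 eyes with group means taken out, against a score of the 2 members above that limit, Tfap2b and Col1a2. Emid2 (an older name of Col26a1, a collagen) had the highest r, 0.956, and was also first when the score held all 9 members. Col6a1, a chain of type VI collagen, followed with 0.940, then Scarf2 with 0.937, Lsp1 with 0.936 and Serpinf1, an antiangiogenic secreted factor, with 0.913. Il11ra1, Dhrs3, Zfp703, Fzd10 and Phldb2 had r of 0.883 to 0.903. With a score of all 9 members, Fzd10, Zfp703 and Phldb2 ranked 11, 13 and 35, and Pcolce, Parm1 and Prrx2 took their places in the first 10. The median r over all genes compared was 0.02. Of the 10 genes ranked by the score of 2 members, only Phldb2 was called in Ftx-/- against WT females (0.63; limma, adjusted p = 0.00104), while Emid2 changed by 0.80 (adjusted p = 0.128). Of all probes above the signal limit 16.8% were called higher and 18.2% lower.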

How the data were processed

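For 31 arrays the authors deposited the scanner output of Agilent Feature Extraction, from which the background-subtracted intensity of each spot was taken, and a series table of intensities, which entered, as log2 values, as 1 of the alternatives. The files place probes on mm9. Of 62976 spots an array 3671 control spots were left out, and over all 31 arrays 120 non-uniform and 5639 population outlier spots. Intensities were normalized by the quantile-spline method that the study names (100 samples, 5 iterations), copies of a probe and then the 2 arrays of each Ftx-/- eye were averaged, and log2 values were fitted with limma 3.58.1 in R 4.3.3 (lmFit, eBayes with trend; 4 groups in 1 fit), with Benjamini-Hochberg adjustment over the 14052 probes whose WT female mean passed a signal of 500, or over all 55681 for probes below it; 21 of the former lacked an eye. A fold against a group with no array well above background was set per array against the probe's own signal or the lowest signal well above background, whichever was higher. It is not a strict bound, as the other group also held arrays not well above background. Tested on simulated data for the female comparison over 55681 probes, the fit recovered 54 of 100 log2 changes of 1 and 85 of 100 of 2. The changed probes were drawn at random from all probes, most of which vary less than the member probes other than Lmx1b. Recovery at the spread of the members was therefore not measured. Genes were named by rule: all members, the 5 largest rises and 5 largest falls of the mesenchyme lists, the 10 genes most like the members, and the ends of the marker lists. The values of 2 genes of these lists are not reported here. The members and lists were chosen with earlier results of these data known. Alternatives included other normalizations, filters, slide and replicate blocks, the methods' t-test and leaving out single eyes. Precision is limited by how many eyes there are.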

Additional observations from a re-analysis of the deposited data

How the results depend on the processing

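The count of member probes called in Ftx-/- against WT females, 7, changed with the processing. It was 2 with normexp and quantile normalization, 4 with the deposited series table, 4 with array 2 of each Ftx-/- eye alone, 4 with the 2 groups fitted alone, 0 with slide as a fixed block, 1 with slide as a random block, 1 (Tfap2b) with the methods' t-test after Benjamini-Hochberg adjustment and 0 with WT males in place of WT females, where the median change was 0.848. Leaving out 1 eye at a time gave 0 to 8, with 0 without WT female 1, 1 without WT female 2 and 4 without WT female 4, WT male 2, Ftx-/Y male 1 or 2, or Ftx-/- eye 2, 4, 5, 6 or 11. Under the other alternatives the count was between 5 and 10. It was 10 with the methods' t-test at the thresholds of the study, an unadjusted p under 0.05 and a fold above 1.2 or below 0.8. The counts for males, for the difference between the sexes and for the WT groups were 0 under every alternative run. The cause of these shifts was not tested, beyond the fewer eyes that some of them fit.

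The replicate numbers did not pair the eyes: of 16 same-numbered pairs 7 had deviations that correlated above 0.1 (range -0.595 to 0.3). With the replicate block 6 probes were called. The change of Lmx1b A_55_P2146297 in females was then 0.013, against -0.27, and ran from -0.81 to 0.12 with single eyes left out, and that of Lmx1b A_55_P2146295 was -0.19 with the 75th percentile subtracted.

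In males, where no probe was called, several changes near 0 turned sign. With the 75th percentile subtracted they were -0.30 and -0.33 for Prrx1 (A_55_P2131915 and A_55_P2131920), 0.029 for Tfap2b and -0.29 for Lmx1b A_55_P2146295. With normexp they were 0.024 for Foxc1, -0.056 for Prrx1 A_55_P2131920 and 0.011 for Tfap2b, and with the series table -0.41 and -0.44 for Prrx1 and -0.40 for Lmx1b A_55_P2146295. With slide as a fixed block they were 0.020 for Foxc1 and -0.91 and -0.21 for Prrx1, with slide as a random block -0.12 and -0.12 for Prrx1, and by the methods' t-test -0.018 for Prrx1 A_55_P2131920. With 1 eye left out they ran from -0.23 to 0.29 for Foxc1, -1.71 to 0.19 for Twist1, -0.42 to 0.65 and -0.44 to 0.41 for Prrx1, -0.11 to 0.17 for Tfap2b, -0.11 to 0.25 for Lmx1b A_55_P2146295, -1.35 to 0.20 for Col1a1 and -0.85 to 0.27 for Col3a1.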
